A study of Mus musculus with 18 samples.

Results

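The 8 genes described here build the machinery that divides, fuses and folds mitochondria: *Dnm1l*, *Mff* and *Fis1* of fission, *Mfn1*, *Mfn2* and *Opa1* of fusion, *Immt* of the cristae, and *Taz*, which encodes tafazzin. The 8 were listed because exons of *Dnm1l*, *Immt* and *Taz* had changed in the knockdown libraries, with earlier results of these data on percent spliced in (PSI) in view. All 8 were present in both expression tables, which list 9435 and 9472 genes. In the splicing table they held 510 of 661941 events, and 488 of the 510 were covered in all 18 libraries.

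RNA-seq was performed on primary mouse embryonic fibroblasts (MEFs) of the genotype Collagen-OKSM, M2rtta+, prepared from male embryos, in which doxycycline induces the reprogramming factors Oct4, Klf4, Sox2 and c-Myc. All 9 groups share this genotype and hold 2 libraries each. In the knockdown (KD) data, non-infected cells at day 0 (NI), before doxycycline, were compared with cells at day 12 of doxycycline and LIF that carried a lentiviral scrambled shRNA (shSCR) or 1 of 2 shRNAs each against the cleavage and polyadenylation endonuclease CPSF3 (shCPSF3#1, shCPSF3#2) or the RNA-binding protein hnRNP UL1 (shUL1#1, shUL1#2). In the overexpression (OE) data, a separate NI group at day 0 was compared at day 12 with cells carrying an empty retroviral vector (Empty) or a cDNA of the splicing regulator TIA1 with a T7 tag (T7-TIA1). Infected cells were sorted for GFP at day 2 and grown on irradiated feeder MEFs, and were harvested unsorted at day 12, so feeder RNA may be part of those libraries. The day 0 cells had neither virus nor feeders, so the effects of time, infection and feeders cannot be told apart. Days follow the sample titles, since another label field gives day 0 for shUL1#2 and day 12 for the NI cells of the OE data. Nothing in the labels says that the 2 libraries of a group came from separate cultures, and p-values therefore measure only the spread between these samples.

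Mitochondria form a network that is cut by fission and joined by fusion. Drp1, the dynamin-related GTPase encoded by *Dnm1l*, is recruited from the cytosol to the outer membrane by adaptors such as Mff, assembles into a ring and constricts the organelle, whereas mitofusins join outer membranes and Opa1 joins inner membranes. Mitofilin (Mic60), the product of *Immt*, is the core of the MICOS complex at cristae junctions, and tafazzin remodels the acyl chains of cardiolipin, the lipid of the inner membrane. Conversion of fibroblasts to pluripotent cells is known to be accompanied by a change from elongated to fragmented mitochondria, and several of these genes are known to be spliced differently between tissues.

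The exons that carry the splicing differences are printed below, with the *Opa1* exon, which was called in no comparison with all libraries, beside them, since each changes which peptide the mRNA encodes. They were read from GENCODE transcripts of GRCm38, the assembly of mm10, in the sense of the gene, with the alternative exon, as the event gives it, in capitals and the 15 bases of the transcript on each side in lower case. All 7 are multiples of 3 in length and are coding in at least 1 annotated transcript, but the *Immt* exon of 90 nt and the *Opa1* exon lie within annotated exons of 96 and 111 nt that start upstream. For these, the last 6 of the lower-case bases before the *Immt* exon, and all of those before the *Opa1* exon, belong to the same annotated exon.
Dnm1l, 78 nt, chr16:16318764-16318841, minus strand: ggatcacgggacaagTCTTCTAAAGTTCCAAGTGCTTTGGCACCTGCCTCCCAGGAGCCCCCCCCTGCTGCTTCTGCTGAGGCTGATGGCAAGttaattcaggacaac
Dnm1l, 33 nt, chr16:16318445-16318477, minus strand: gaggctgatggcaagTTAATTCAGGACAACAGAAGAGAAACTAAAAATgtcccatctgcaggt
Mff, 60 nt, chr1:82747083-82747142, plus strand: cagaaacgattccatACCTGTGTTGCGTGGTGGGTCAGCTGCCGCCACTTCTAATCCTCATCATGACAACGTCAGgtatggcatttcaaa
Immt, 90 nt, chr6:71853179-71853268, plus strand: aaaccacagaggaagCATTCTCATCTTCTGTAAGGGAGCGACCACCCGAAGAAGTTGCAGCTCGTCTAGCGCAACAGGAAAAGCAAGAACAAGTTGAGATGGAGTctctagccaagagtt
Immt, 15 nt, chr6:71866726-71866740, plus strand: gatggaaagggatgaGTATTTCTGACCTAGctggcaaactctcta
Taz, 36 nt, chrX:74288984-74289019, plus strand: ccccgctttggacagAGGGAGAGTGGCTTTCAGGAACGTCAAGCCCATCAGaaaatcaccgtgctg
Opa1, 78 nt, chr16:29597619-29597696, plus strand: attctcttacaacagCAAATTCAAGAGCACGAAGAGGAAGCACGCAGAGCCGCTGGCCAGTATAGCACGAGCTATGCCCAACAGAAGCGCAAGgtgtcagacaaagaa

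The exons of *Dnm1l* adjoin each other in the mRNA, and the last bases of the 78-nt exon are the lower-case bases before the 33-nt exon. Both are in 1 annotated protein-coding transcript, the 33-nt exon alone is in 2, and 2 have neither. The 33-nt exon is 69.7% A or G and 27.3% G or C, against 39.7% and 59.0% for its 78-nt neighbour.

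Reads on listed genes came to 98882289 to 109047542 per library, inferred from the smallest step between expression values, of which all values of a library were whole multiples to within 0.05. Each library had 489 to 497 covered events of the 8 genes, with a median of 321.5 to 417 reads per event. The targets moved with their labels, with scaled CPM (reads per 1e6) of 38.6 to 77.1 for *Cpsf3* in shCPSF3 cells against 82.2 to 118 in NI and shSCR cells, 38.7 to 85.8 for *Hnrnpul1* in shUL1 cells against 156 to 198, and 469 to 613 for *Tia1* in T7-TIA1 cells against 72.1 to 103. Since the *Tia1* reads include the introduced cDNA, they do not measure the endogenous gene. *Hnrnpul1* was 118 and 131 in shCPSF3#1 and 133 and 166 in shCPSF3#2 cells, and *Cpsf3* was 74.2 to 88.5 in shUL1 cells. In the KD data *Tia1* was 82.4 to 113 in the 8 knockdown libraries against 63.7 to 69.7 in NI and shSCR cells. The summed CPM of 13 listed fibroblast markers of 15, a check of the labelled cell type, was 16107 and 19453 in NI cells, 7031 and 6787 in shSCR cells, and 14254 to 30221 in the 8 knockdown libraries. In the OE data it was 17937 and 41463 in NI, 6778 and 7690 in Empty and 5564 and 5989 in T7-TIA1 cells. Of 20 epithelial and pluripotency markers, only *Krt8* and *Krt18* were listed in the KD table and none in the OE table. In bulk RNA, fewer cells of a type and less RNA per cell cannot be told apart, and the part of these shifts in the results below was not tested.

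Inclusion of variable exons of *Dnm1l*, *Immt* and *Taz* was higher at day 12 in shSCR than in NI cells, and in all 8 libraries with an shRNA against CPSF3 or hnRNP UL1 it was below both shSCR libraries. An event was called between days when the PSI means differed by at least 10 and the nearest libraries by at least 5. Of 488 covered events of the 8 genes, 17 were called in shSCR against NI, 3.48% against 1.22% of all covered events, with 14 higher and 3 lower (0.75% and 0.47% of all). They lay in *Immt* (5), *Taz* (6), *Dnm1l* (3) and *Mff* (3), and none in *Mfn1*, *Mfn2*, *Opa1* or *Fis1*. The 3 lower events are forms of 3′ splice sites in *Taz*, *Mff* and *Immt* of which another form is counted as higher. Because the genes were listed with these values in view, the KD differences are given as a description with no test.

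The widest switch was in *Dnm1l*, the GTPase of fission. The 33-nt exon of *Dnm1l* (MmuEX0015293) had PSI values of 20.2 and 19.0 in NI and 74.7 and 77.4 in shSCR cells. The values were 16.1 and 15.7 in shCPSF3#1, 23.7 and 41.5 in shCPSF3#2, 30.0 and 41.0 in shUL1#1, and 25.1 and 38.6 in shUL1#2 cells. All 8 knockdown libraries lay below both shSCR libraries, and the shCPSF3#1 libraries lay below both NI libraries. The knockdown groups held −6.59% to 28.1% of the shSCR change. These values rest on 466 to 1242 reads per library, and the widest 95% Wilson interval of a library was ±4.15 points, which covers counting error only.

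The neighbouring 78-nt exon (MmuEX0015292) followed over a smaller range. Its PSI was 14.6 and 14.9 in NI, 31.3 and 38.9 in shSCR, 13.6 and 14.9 in shCPSF3#1, 19.1 and 26.6 in shCPSF3#2, 21.9 and 26.7 in shUL1#1 and 22.4 and 24.5 in shUL1#2 cells. The shCPSF3#1 cells were at the NI level, while the other 3 knockdown groups lay between NI and shSCR, with 39.9% to 47.3% of the change. The intron annotated across both exons (MmuINT0051768, 2673 nt) had a mean retention value of 14.3 ± 1.61 (SD, n = 2 here and for all group values below) in NI and 48.5 ± 1.52 in shSCR cells, and 12.3 to 28.8 in the knockdown groups. That measure is not independent of the exons it spans.

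In *Mff*, which encodes an outer membrane receptor of Drp1, the 60-nt exon differed from that pattern, whereas a 3′ splice site did not. The 60-nt exon (MmuEX0028787) had PSI values of 38.9 and 37.7 in NI and 53.0 and 46.9 in shSCR cells. The highest values were in shCPSF3#1 cells, at 60.01 and 56.9, and shCPSF3#2 cells had 51.3 and 41.5. In shUL1 cells the 4 values ranged from 42.2 to 52.0. The shCPSF3#2 and shUL1#1 libraries overlapped shSCR, whereas shCPSF3#1 lay above both shSCR libraries and shUL1#2 below them. The mean differences of 2.49 (CPSF3) and −4.77 (UL1) were not called. That of CPSF3 averages shRNAs of opposite sign, 8.51 for shCPSF3#1 and −3.5 for shCPSF3#2. A second choice in *Mff* is a 3′ splice site that adds or omits the 3 bases CAG at chr1:82735416. The shorter form (MmuALTA0010879-1/2) made up 59.4 ± 0.83% in NI, 69.5 ± 0.83% in shSCR and 58.7 to 60.1% in the knockdown groups, and the longer form mirrors it. The difference was −10.7 for UL1, which was called, and −9.66 for CPSF3, just under the threshold.

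No event of *Fis1*, which encodes another outer membrane protein of fission, was called. Its most variable covered event was an exon (MmuEX0019264, chr5:136962999-136963131), which is coding, with a length of 133 nt that is no multiple of 3. It was included at 96.0 to 98.0% on average in all 6 KD groups.

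With all libraries, no event of the 3 fusion genes was called in any of the 5 comparisons. The 78-nt exon of *Opa1* (MmuEX0033097) had PSI values of 35.0 and 32.2 in NI, 37.4 and 42.7 in shSCR and 29.1 to 34.1 in the 8 knockdown libraries. The knockdown libraries lay below both shSCR libraries, but the differences of −7.92 (CPSF3) and −8.29 (UL1) were under the threshold. An intron of *Mfn1* (MmuINT0098176, 5923 nt) was retained at 3.30 and 4.72% in NI, 16.4 and 11.2% in shSCR and 3.43 to 9.23% in the knockdown libraries, a day 12 difference of 9.79 that also missed the threshold. For *Mfn2*, group means of the most variable intron (MmuINT0098178, 106 nt) were 3.38 to 5.07 in the KD data.

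The cristae gene *Immt* switched at 3 sites. Its 90-nt exon (MmuEX0024088) had PSI values of 35.5 and 35.7 in NI and 78.8 and 80.3 in shSCR cells. They were 29.0 and 32.7 in shCPSF3#1, 34.9 and 48.6 in shCPSF3#2, 39.3 and 53.5 in shUL1#1, and 36.9 and 51.3 in shUL1#2 cells. No knockdown library reached the shSCR range. The 15-nt exon (MmuEX0024084), which encodes 5 codons, had 61.1 and 59.99 in NI, 86.9 and 89.8 in shSCR, and 60.6 to 82.0 in the 8 knockdown libraries. It kept 8.94% to 45.9% of the shSCR change in the knockdown groups. An upstream 3′ splice site adding 36 bases (MmuALTA0009134-5/5, exon chr6:71852730-71852867) was used at 32.6 ± 1.77% in NI, 49.0 ± 2.18% in shSCR and 37.7 to 40.2% in the knockdown groups.

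In *Taz*, the 36-nt exon (MmuEX7033618) is in 1 of 22 annotated transcripts. Its PSI was 36.8 and 20 in NI and 68.9 and 60.4 in shSCR cells. The 8 knockdown libraries had 17.1 to 38.8, all below shSCR and on both sides of the NI values. Only 40 to 173 reads stood behind each value, and the widest Wilson interval ran from 24.2 to 53.0 in an NI library, the least precise of the 7 exons. The intron that contains this exon (MmuINT0157189, chrX:74288715-74289104) was retained at 42.6 ± 4.84% in NI, 63.5 ± 4.30% in shSCR and 41.5 to 47.8% in the knockdown groups. An intron upstream of it (MmuINT0157188, chrX:74288220-74288450) had 55.1 ± 8.94% in NI, 72.0 ± 0.49% in shSCR and 56.5 to 63.8% in the knockdown groups. Both introns have coding sequence on either side. The other called events were 2 introns and a 3-base shift of a 3′ splice site in *Taz* and an intron and another form of the 3′ splice site in *Immt*. Between shSCR and NI they differed by 16.5 (*Taz* MmuINT1032742), −13.9 (the longer *Taz* form, MmuALTA0017838-2/2), 11.6 (*Immt* MmuINT0081895) and −14.1 (MmuALTA0009134-2/5), and *Taz* intron MmuINT0157190 was called in the OE data alone (−3.58 in the KD data).

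**Figure D1:**
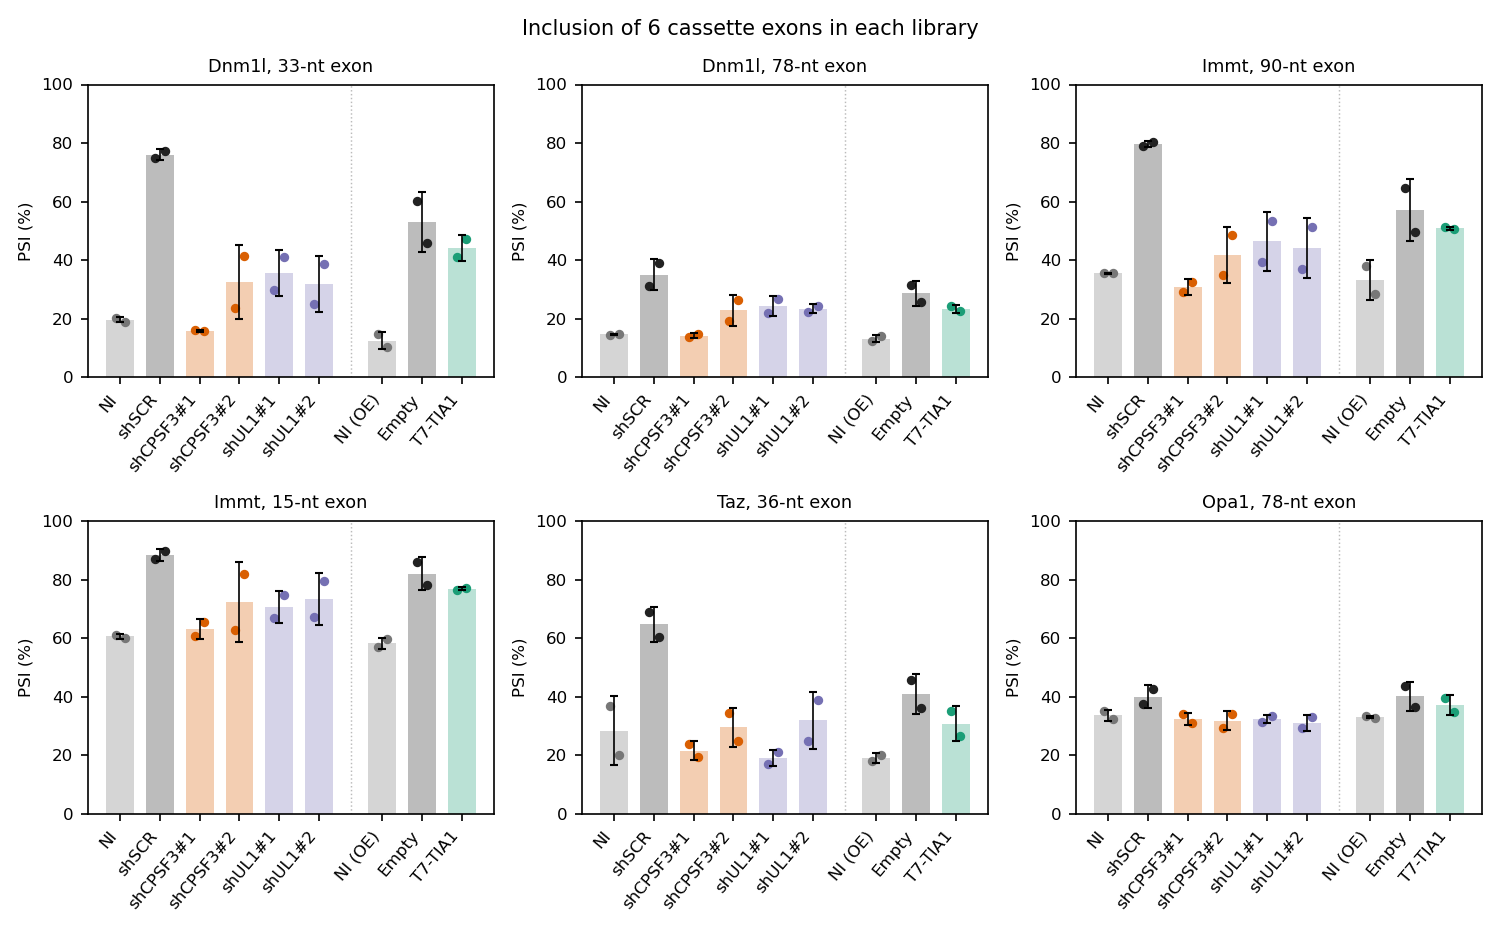
PSI in percent (y axis) of 6 cassette exons of *Dnm1l*, *Immt*, *Taz* and *Opa1* by group (x axis), with points for the libraries, bars for the mean and error bars for the SD of 2 libraries. The 33-nt *Dnm1l* exon stands at 74.7 and 77.4 in shSCR cells and at 15.7 to 41.5 in the 8 knockdown libraries.

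An event was called dependent on CPSF3 or UL1 when the mean of both shRNAs differed from shSCR by at least 10 and, for each shRNA, NI, shSCR and that shRNA differed in at least 1 pair by the day rule. With CPSF3 knockdown, 13 of 488 events of the 8 genes were called, 2.66% against 0.587% of all covered events, 12 lower and 1 higher than shSCR (0.34% and 0.248% of all). With UL1 knockdown, 11 of 488 were called, 2.25% against 0.497%, with 10 lower and 1 higher (0.27% and 0.227% of all). The 1 higher event is the longer form of a 3′ splice site, in *Taz* for CPSF3 and in *Mff* for UL1. Its shorter form is counted as lower. Both comparisons use the same shSCR libraries, as does shSCR against NI, so they are not independent. The mean differences from shSCR were −51.8 and −42.4 for the 33-nt *Dnm1l* exon, −43.3 and −34.3 for the 90-nt *Immt* exon, −39.1 and −39.2 for the 36-nt *Taz* exon, −20.6 and −16.3 for the 15-nt *Immt* exon, and −16.5 and −11.2 for the 78-nt *Dnm1l* exon, with CPSF3 named first. The UL1 difference of the 78-nt exon was no longer called without shSCR replicate 2 (−7.39) or without shUL1#1 replicate 1, where it fell just short of the threshold, and it was −15.0 without shSCR replicate 1. With 1 library left out, the UL1 count of 11 ranged from 9 (without shSCR replicate 2) to 14, and the CPSF3 count of 13 from 12 to 14. Other events near the threshold crossed it too. Retention of *Taz* intron MmuINT0157188 differed by −5.79 for UL1 without shUL1#1 replicate 1 and was then not called. The *Mff* 60-nt exon differed by 8.57 between shSCR and NI without shSCR replicate 1, and the *Mff* 3′ splice site by 9.48 without NI replicate 1 or shSCR replicate 2, neither of them called. For CPSF3 the shorter form of that splice site differed by −10.2 without shSCR replicate 1 and was then called. The *Immt* 3′ splice site differed by −9.64 for CPSF3 without shSCR replicate 1 and was then not called. The *Opa1* exon was called without shSCR replicate 1, at −10.6 (CPSF3) and −11.0 (UL1), and in the OE data between Empty and NI without Empty replicate 2, at 10.6. The *Mfn1* intron was called between shSCR and NI without shSCR replicate 2, at 12.4, and without NI replicate 2.

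**Figure D2:**
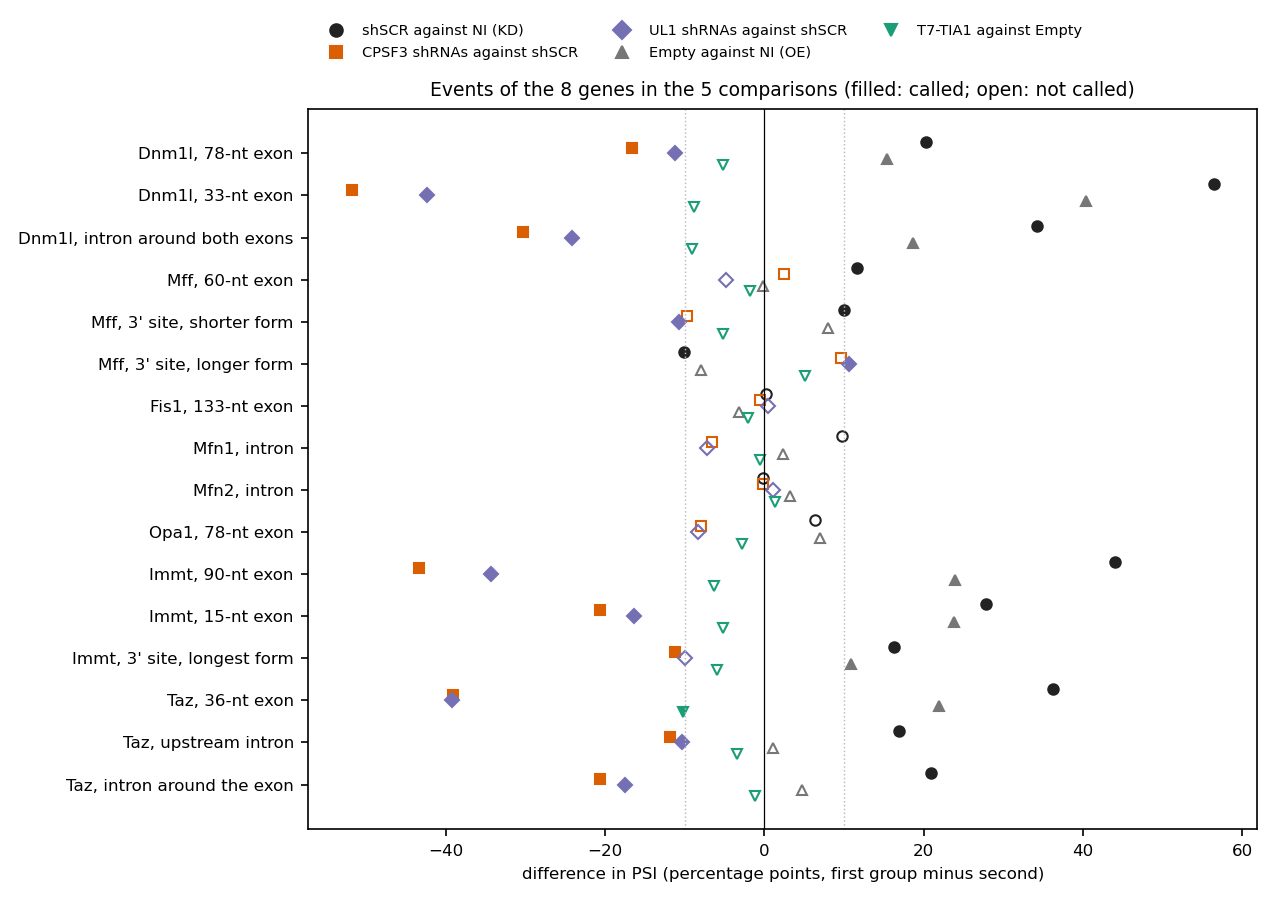
Difference in PSI (x axis, percentage points) of the 16 named events (y axis) in each of the 5 comparisons, with filled symbols for called differences and dotted lines at −10 and 10. Exons of *Dnm1l*, *Immt* and *Taz* are above 0 at day 12 in both datasets and below 0 after knockdown, down to −51.8 for the 33-nt *Dnm1l* exon.

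Replicate libraries lay farther apart for the *Dnm1l* and *Immt* exons in 3 of the 4 knockdown groups than in shCPSF3#1. In shCPSF3#2, shUL1#1 and shUL1#2 cells, replicate 2 had a higher PSI of the 33-nt *Dnm1l* exon than replicate 1, and also a higher PSI of both *Immt* exons. In the same 3 groups replicate 2 had the lower fibroblast marker sum (16647 against 25314, 17269 against 30221, and 14254 against 18810). It also had the lower sum of *Krt8* and *Krt18* (39.2 against 206, 67.5 against 221, and 51.2 against 89.6), which was 539 and 298 in shSCR and 20.4 and 16.0 in NI cells. In shCPSF3#1 cells the 33-nt *Dnm1l* exon had 16.1 and 15.7, while replicate 2 had the higher marker sums (fibroblast 26080 against 21903, *Krt8* and *Krt18* 42.4 against 31.7). The 36-nt *Taz* exon did not follow the *Dnm1l* and *Immt* exons in shCPSF3#2 cells, with 34.3 in replicate 1 and 24.8 in replicate 2. Replicate 2 also had more of the targeted mRNA in scaled CPM. *Cpsf3* was 77.1 against 42.4 in shCPSF3#2 cells. *Hnrnpul1* was 85.8 against 55.7 in shUL1#1 and 63.7 against 38.7 in shUL1#2 cells. In shCPSF3#1 cells, where the 33-nt *Dnm1l* exon was not higher in replicate 2, *Cpsf3* was 49.99 against 38.6. In shSCR cells replicate 2 was higher too (*Cpsf3* 118 against 86.7, *Hnrnpul1* 185 against 156). Whether the makeup of the cultures or the level of the targeted mRNA takes part in the exon differences was not tested.

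Inclusion of the *Dnm1l* and *Immt* exons was also higher at day 12 in the OE data, in Empty against NI cells. The OE libraries are separate from the KD libraries, but earlier results of the whole series were known when the genes were listed, so the tests on them are not independent support. The reads behind each PSI were compared in *limma* as log2 odds of inclusion, over 95308 events with adjustment over all of them, 97 of which belonged to the 8 genes. At an adjusted p under 0.05, 7 of the 97 passed, 7.22% against 1.71% of all events tested, with 5 higher and 2 lower in Empty cells (0.946% and 0.762% of all).

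The 33-nt *Dnm1l* exon had PSI values of 14.7 and 10.4 in NI and 60.3 and 45.7 in Empty cells, and its log2 odds rose by 2.96 ± 0.30 (SE, *limma* adjusted p = 4.18e-05). The 78-nt exon had 12.4 and 14.1 against 31.7 and 25.7 (1.39 ± 0.25, *limma* adjusted p = 0.00667). Groups did not overlap for either exon, and the 2 Empty libraries lay apart from each other by more than the NI libraries did. The 15-nt *Immt* exon had 56.8 and 59.5 against 85.9 and 78.2 (1.73 ± 0.26, *limma* adjusted p = 0.00162). The 90-nt *Immt* exon had 38.1 and 28.4 against 64.6 and 49.7 (1.43 ± 0.28, *limma* adjusted p = 0.0149). Over leave-one-out fits, the 33-nt *Dnm1l* and 15-nt *Immt* exons passed each time. On unweighted PSI in percent neither passed (*limma* adjusted p = 0.185 and 0.160), nor did the 78-nt *Dnm1l* exon (0.301), the 90-nt *Immt* exon (0.343) or any other of the 97 events. In the leave-one-out fits the 78-nt *Dnm1l* exon did not pass without NI replicate 1 (*limma* adjusted p = 0.125) or Empty replicate 1 (0.0653), nor the 90-nt *Immt* exon without NI replicate 2 (*limma* adjusted p = 0.171) or Empty replicate 1 (0.166).

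The 36-nt *Taz* exon had 17.9 and 20.2 in NI and 45.8 and 36.2 in Empty cells, but on 45 to 126 reads an OE library its log2 odds of 1.48 ± 0.41 did not pass (*limma* adjusted p = 0.0792). It passed without Empty replicate 2 (*limma* adjusted p = 0.0312). A downstream *Taz* intron (MmuINT0157190, chrX:74289183-74289298) fell from 20.4 and 17.9% to 8.82 and 6.65% (−1.46 ± 0.30, *limma* adjusted p = 0.0164), a call lost without NI replicate 1 (0.200) or 2 (0.0794). Another *Taz* exon (MmuEX0046361), outside the rule for named events and noted after its value was seen, rose from 94.3 to 99.2% on average (2.65 ± 0.64, *limma* adjusted p = 0.0413), a call lost without any 1 of the 6 libraries (0.0582 to 0.411). The *Fis1* exon of 133 nt fell from 98.2 and 98.6 to 95.4 and 94.98 (−1.63 ± 0.28, *limma* adjusted p = 0.00533, and 0.434 on unweighted PSI), a move of 3.21 points that the 10-point rule does not count. It did not pass without NI replicate 1 (*limma* adjusted p = 0.0509) or NI replicate 2 (0.0869).

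For the other genes no difference was detected between Empty and NI. The 60-nt *Mff* exon had 41.4 and 45.1 in NI and 43.9 and 42.4 in Empty cells (log2 odds −0.01 ± 0.21, *limma* adjusted p = 0.994), whereas its KD means had differed by 11.6 points. The *Opa1* exon had 33.3 and 32.7 against 43.6 and 36.5 (0.44 ± 0.24, *limma* adjusted p = 0.418). None of 5 events tested in *Mfn1*, 11 in *Mfn2*, 19 in *Opa1* and 10 in *Mff* passed.

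By the 10-point rule, 9 of 490 covered events of the 8 genes were called in Empty against NI, 1.84% against 0.679% of all covered events, in *Dnm1l*, *Immt* and *Taz*. Of the 17 events called in shSCR against NI, 16 (94.1%) had the same sign in Empty against NI and 8 (47.1%) were also called, against 84% and 28.2% of the 4424 events of all genes called in shSCR against NI and covered in the OE data. The 17 count both forms of a 3′ splice site in *Mff* and in *Taz*, which mirror each other. They also count 2 forms of a 3′ splice site in *Immt*, which went in opposite directions. All 17 differences were smaller in the OE data, as were 89.9% of the 4424, which had been picked for their size in the KD data. The Empty difference was 71.7% of the shSCR difference for the 33-nt *Dnm1l* exon, 54.4% for the 90-nt and 85.9% for the 15-nt *Immt* exon. The 2 datasets share no libraries but differ in virus, and whether the sizes differ was not tested.

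**Figure D3:**
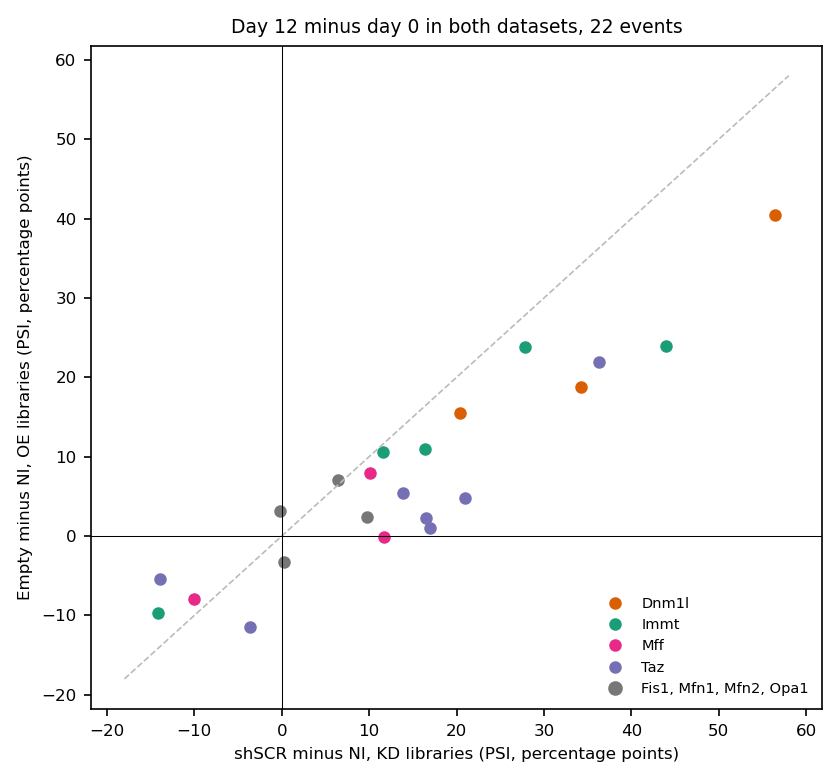
Day 12 minus day 0 difference in PSI (percentage points) of the described events, in the KD data on the x axis (shSCR minus NI) and in the OE data on the y axis (Empty minus NI), with colours for genes and a dashed line of equal values. The 33-nt *Dnm1l* exon lies farthest out, at 56.5 and 40.4, and the 60-nt *Mff* exon at 11.6 and −0.10.

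No difference of these exons with TIA1 overexpression was detected in the read test. In T7-TIA1 cells the 33-nt *Dnm1l* exon had PSI values of 41.1 and 47.3, within or below the Empty values of 60.3 and 45.7 (log2 odds −0.51 ± 0.28, *limma* adjusted p = 0.938). The 90-nt *Immt* exon had 51.2 and 50.5 (−0.38 ± 0.28, *limma* adjusted p = 0.959), and the 15-nt exon 76.5 and 77.3 (−0.47 ± 0.26, *limma* adjusted p = 0.940). Empty replicate 1 was the highest library for all of them. With 1 library left out, the log2 odds ranged from −0.935 to −0.0861 for the 33-nt *Dnm1l* exon and from −0.873 to −0.106 for the 15-nt *Immt* exon.

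The 36-nt *Taz* exon, at 35.1 and 26.6 in T7-TIA1 cells against 45.8 and 36.2 in Empty cells, was the only event of the 8 genes called for TIA1. A call needed means of T7-TIA1 and Empty at least 10 apart and at least 1 pair among NI, Empty and T7-TIA1 that differed by the day rule. The nearest T7-TIA1 and Empty libraries of this exon were closer than 5 points, and the pairs that met the day rule were Empty against NI and T7-TIA1 against NI. That is 1 of 490 (0.204%) against 0.33% of all covered events. Its difference of −10.2 is just past the threshold, its log2 odds did not pass (−0.67 ± 0.37, *limma* adjusted p = 0.940), and the rule called none of the 490 without Empty replicate 1 and 5 without Empty replicate 2. In the read test 0 of 97 events passed, against 0.0588% of all events, 56 in number. At an unadjusted p under 0.05, 5 of the 97 (5.15%) stood against 5.5% of all events. They were the *Fis1* exon (−0.54 ± 0.25, *limma* adjusted p = 0.904), *Taz* exons MmuEX0046361 (−1.98 ± 0.65, 0.666) and MmuEX0046354 (−1.54 ± 0.56, 0.776), *Taz* intron MmuINT0157190 (0.76 ± 0.30, 0.847) and *Mff* exon MmuEX0028785 (0.58 ± 0.23, 0.854).

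The expression of the 8 genes was compared in *limma* on log2(scaled CPM + 1) over all listed genes, with a threshold of 0.05 on the adjusted p. Expression was no criterion for listing the genes, but the KD tests rest on the same libraries. At day 12, *Mfn2* was lower and *Taz* higher in control cells of both datasets. In shSCR against NI 3 of the 8 genes passed, against 44.5% of all genes. In CPSF3 and UL1 knockdown 3 passed in each, *Mfn2*, *Fis1* and *Taz*, against 26.1% and 10.5% of all genes. In Empty against NI 3 passed, against 46.5%. With the replicate number as a block, 5 of the 8 passed for CPSF3 and for UL1, against 49.8% and 29.3% of all genes, 4 in shSCR against NI, against 59.4%, and 2 in Empty against NI, against 46.4%. When only the groups compared were fitted, *Mfn2* and *Taz* passed in shSCR against NI and *Mfn2* alone for CPSF3 and in Empty against NI, and the other calls were lost (*limma* adjusted p = 0.0547 to 0.131).

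*Mfn2*, which encodes an outer membrane mitofusin that also tethers the endoplasmic reticulum, had scaled CPM of 114 and 120 in NI and 49.4 and 40.4 in shSCR cells. That is a log2 change of −1.37 ± 0.15 (SE, *limma* adjusted p = 3.10e-04). It was 71.1 to 109 in shCPSF3 cells (1.01 ± 0.13 against shSCR, *limma* adjusted p = 0.00274). In shUL1 cells it was 61.6 to 78.01 (0.66 ± 0.13, *limma* adjusted p = 0.0214). All 8 knockdown libraries lay between the shSCR and NI libraries. In the OE data it fell from 127 and 109 to 49.8 and 58.5 (−1.11 ± 0.15, *limma* adjusted p = 0.00351). The call held without any 1 library in shSCR against NI, CPSF3 and Empty against NI, but for UL1 it was lost without shSCR replicate 1 or 2 or replicate 1 of either shRNA (*limma* adjusted p = 0.0539 to 0.145).

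*Taz* moved the other way. It had 21.9 and 23.7 in NI and 69.6 and 59.1 in shSCR cells (1.45 ± 0.12, *limma* adjusted p = 1.03e-04), and 41.6 to 51.7 in the 8 knockdown libraries, all between NI and shSCR. The difference from shSCR was −0.43 ± 0.11 for CPSF3 (*limma* adjusted p = 0.0229) and −0.50 ± 0.11 for UL1 (*limma* adjusted p = 0.0275). The CPSF3 call was lost without either shSCR library or without replicate 1 of either shRNA (*limma* adjusted p = 0.0513 to 0.111). The UL1 call was lost without any 1 NI, shSCR or shUL1 library (*limma* adjusted p = 0.0523 to 0.129). In the OE data it rose from 28.0 and 36.1 to 55.9 and 43.7 (0.62 ± 0.18, *limma* adjusted p = 0.0381), a call that was lost without any 1 library other than NI replicate 2 (*limma* adjusted p = 0.0557 to 0.211) or with the replicate block (0.0524).

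*Fis1* fell from 64.0 and 65.0 in NI to 48.0 and 54.4 in shSCR cells (−0.33 ± 0.10, *limma* adjusted p = 0.0265), a call lost without either NI library or shSCR replicate 1 (*limma* adjusted p = 0.101 to 0.128). It was 67.6 to 77.3 in shCPSF3 cells (0.50 ± 0.09 against shSCR, *limma* adjusted p = 0.00633) and 64.5 to 69.8 in shUL1 cells (0.39 ± 0.09, *limma* adjusted p = 0.0283). The CPSF3 call held without any 1 library but not when only the groups compared were fitted (*limma* adjusted p = 0.0802, and 0.122 for shSCR against NI), whereas the UL1 call was lost without any 1 NI, shSCR or shUL1 library (*limma* adjusted p = 0.0517 to 0.129). The difference between Empty and NI did not pass (−0.16 ± 0.11, *limma* adjusted p = 0.255).

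*Dnm1l* had 162 and 163 in NI and 213 and 285 in shSCR cells, without overlap, but the change did not pass (0.60 ± 0.25, *limma* adjusted p = 0.0881). The same held for CPSF3 (−0.57 ± 0.22, *limma* adjusted p = 0.0877) and UL1 (−0.59 ± 0.22, *limma* adjusted p = 0.125). With the replicate block all 3 passed (*limma* adjusted p = 0.00810, 0.00792 and 0.0136). In the OE data it rose from 171 and 163 to 276 and 221 (0.56 ± 0.13, *limma* adjusted p = 0.0193), a call lost without Empty replicate 1 (0.111) or either T7-TIA1 library (0.0551 and 0.0548). For *Immt* no change passed, with 201 and 198 in NI and 144 and 177 in shSCR cells (−0.32 ± 0.16, *limma* adjusted p = 0.144) and 203 and 173 against 186 and 185 in the OE data (−0.02 ± 0.12, *limma* adjusted p = 0.913). The exon differences of *Immt* stood beside total levels for which no change passed, although both shSCR libraries lay below both NI libraries.

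*Mff*, *Mfn1* and *Opa1* passed in none of the comparisons. With the replicate block *Mfn1* passed for CPSF3 (−0.24, *limma* adjusted p = 0.0278) and UL1 (−0.23, *limma* adjusted p = 0.0497), and the other two in none. The day 12 log2 changes of the 3 were, in that order, 0.05 ± 0.10, 0.16 ± 0.13 and −0.14 ± 0.11 in the KD data (*limma* adjusted p = 0.699, 0.357 and 0.344) and −0.15 ± 0.11, 0.03 ± 0.10 and −0.06 ± 0.10 in the OE data (*limma* adjusted p = 0.282, 0.815 and 0.662). Between T7-TIA1 and Empty cells, *limma* called 0 of the 8 genes and 0 of 9472 genes, with 393 genes, 4.15%, at an unadjusted p under 0.05. The closest of the 8 was *Taz*, at 33.8 and 38.2 in T7-TIA1 cells (−0.45 ± 0.18, *limma* adjusted p = 0.999). The effects of the CPSF3 and UL1 shRNAs on the 8 genes were also set against each other, and 0 of 8 differed, against 0.0424% of all genes (4 genes). The nearest was *Mfn2* (0.35 ± 0.11, *limma* adjusted p = 0.266).

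**Figure D4:**
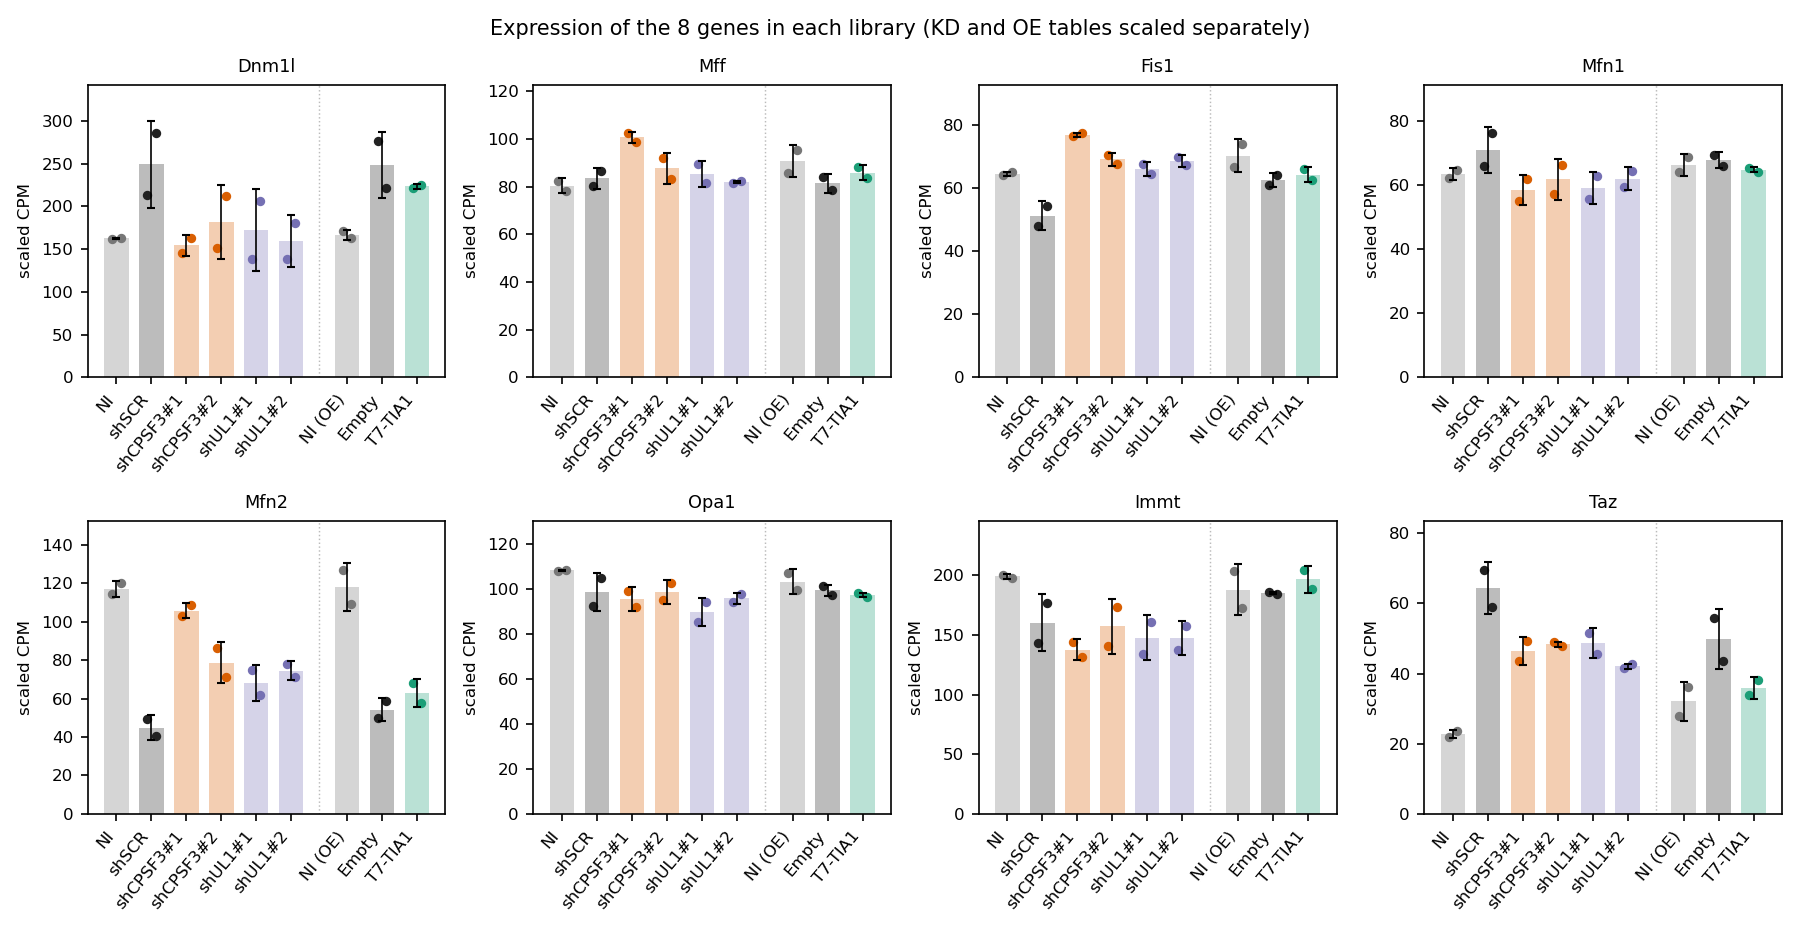
Scaled CPM (y axis) of the 8 genes by group (x axis), with points for the libraries, bars for the mean and error bars for the SD of 2 libraries, and with the KD and OE tables scaled separately. *Mfn2* falls from 114 and 120 in NI to 49.4 and 40.4 in shSCR cells, and *Taz* rises from 21.9 and 23.7 to 69.6 and 59.1.

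Fibroblast markers moved in the same comparisons. Of the 13 listed, 6 were lower in shSCR than in NI and 0 higher, 9 were higher than shSCR with CPSF3 knockdown and 5 with UL1 knockdown (9 with the replicate block), and 10 were lower in Empty than in NI, with median log2 changes of −1.09, 1.33, 1.03 and −1.74. Their part in the changes of *Mfn2*, *Taz* and *Fis1* was not tested.

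Beyond the 8 genes, partner genes were grouped by role. Over all genes, 22.5% were higher and 22% lower in shSCR than in NI, 16.7% and 9.35% with CPSF3 knockdown, 7.31% and 3.15% with UL1 knockdown, and 22.8% and 23.6% in Empty against NI. Of 14 listed genes of the cristae group, 7 were lower in shSCR than in NI and 0 higher, with a median log2 change of −0.39 against 0.00 over all genes. The largest were *Apoo* (−0.74 ± 0.18, *limma* adjusted p = 0.0110), a MICOS subunit, and *Letm1* (−0.70 ± 0.11, *limma* adjusted p = 0.00145), an inner membrane protein of ion exchange. In Empty against NI 1 was higher, *Samm50* (0.61 ± 0.14, *limma* adjusted p = 0.0173), which encodes the channel of the outer membrane sorting complex, and 1 lower, *Micos10* (−0.36 ± 0.11, *limma* adjusted p = 0.0409), with a median of −0.21 against 0.01 over all genes. With knockdown, *Letm1* was higher (0.54 ± 0.09, *limma* adjusted p = 0.00725) and *Apool*, another MICOS subunit, lower for CPSF3 (−0.48 ± 0.11, *limma* adjusted p = 0.0172), and *Apool* alone was lower for UL1 (−0.42 ± 0.11, *limma* adjusted p = 0.0495).

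Genes of cardiolipin synthesis and turnover changed in both directions at day 12, 3 higher and 6 lower of 13 listed in shSCR against NI, and 2 higher and 7 lower of 14 in Empty against NI. Phospholipase *Pla2g6* was higher in both (1.31 ± 0.17 and 1.24 ± 0.13, *limma* adjusted p = 6.96e-04 and 0.00196). *Cds2*, of CDP-diacylglycerol synthesis, was higher in shSCR cells (1.26 ± 0.18, *limma* adjusted p = 0.00108), and the acyltransferase *Lclat1* was lower in Empty cells (−1.52 ± 0.15, *limma* adjusted p = 0.00159). With CPSF3 knockdown 3 were higher and 0 lower, led by the scramblase *Plscr3* (0.99 ± 0.16, *limma* adjusted p = 0.00520) and *Hadha* (0.38 ± 0.11, *limma* adjusted p = 0.0370). With UL1 knockdown *Plscr3* was the 1 gene that passed (0.82 ± 0.16, *limma* adjusted p = 0.0190).

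Of 12 listed fission partners, 1 was higher and 2 lower in shSCR cells, with *Akap1*, an outer membrane anchor of protein kinase A, at 0.72 ± 0.15 (*limma* adjusted p = 0.00594) and *Spire1*, an actin nucleator, at −1.01 ± 0.17 (*limma* adjusted p = 0.00242). *Akap1* was also higher in Empty cells (0.81 ± 0.12, *limma* adjusted p = 0.00506), where 3 of 13 were higher and 1 was lower, the formin *Inf2* (−0.59 ± 0.15, *limma* adjusted p = 0.0239). With CPSF3 knockdown 3 were higher and 1 lower, with *Mtfr1* at −0.48 ± 0.14 (*limma* adjusted p = 0.0381) and the mitophagy receptor *Fundc1* at 0.43 ± 0.13 (*limma* adjusted p = 0.0434), and with UL1 knockdown *Spire1* was lower (−0.64 ± 0.15, *limma* adjusted p = 0.0352).

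Of 15 listed fusion partners, 2 were higher and 1 lower in shSCR cells. *Chchd10*, of the intermembrane space, rose by 5.27 ± 0.83 on the log2 scale (*limma* adjusted p = 0.00160) and *Miga1*, mitoguardin, by 1.17 ± 0.38 (*limma* adjusted p = 0.0359). With CPSF3 knockdown both were lower (−2.35 ± 0.72 and −1.48 ± 0.33, *limma* adjusted p = 0.0459 and 0.0152), among 2 higher and 2 lower, and with UL1 knockdown 0 of 15 passed. *Miga1* was the 1 of 14 that passed in Empty cells (1.48 ± 0.13, *limma* adjusted p = 0.00135). Of 7 listed transport genes, 1 was higher and 3 lower in both shSCR and Empty cells, and the kinesin adaptor *Trak1* was higher in both (1.16 ± 0.11 and 1.01 ± 0.20, *limma* adjusted p = 1.81e-04 and 0.0105). Its relative *Trak2* was lower in shSCR cells (−0.78 ± 0.14, *limma* adjusted p = 0.00295) and *Armcx3* in Empty cells (−1.22 ± 0.23, *limma* adjusted p = 0.0103). With CPSF3 knockdown 2 were higher and 2 lower, with *Mtus1* at −1.02 ± 0.22 (*limma* adjusted p = 0.0138) and *Armcx3* at 0.87 ± 0.18 (*limma* adjusted p = 0.0119). With UL1 knockdown *Armcx3* was at 0.71 ± 0.18 and *Trak1* at −0.40 ± 0.10 (*limma* adjusted p = 0.0431 and 0.0416). Between T7-TIA1 and Empty cells none of the 5 groups had a gene past the threshold. With the replicate block, counts of higher and lower genes for UL1 became 1 and 2 for fission, 1 and 3 for fusion, 1 and 1 for cristae and for cardiolipin, and for CPSF3 they became 3 and 4 for fusion, 2 and 2 for cristae and 4 and 1 for cardiolipin. In shSCR against NI they became 3 and 2 for fission, and in Empty against NI 2 and 0 for fusion. Other counts of these 5 groups moved by at most 1 gene in a direction, with *Mtfr1* of fission (*limma* adjusted p = 0.0506) and *Acsl4* of cardiolipin (0.0515) lost in Empty against NI.

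In splicing, calls among the partners were counted by the 10-point rule. In shSCR against NI, 7 of 430 covered events of the fission group, 8 of 555 of fusion, 3 of 418 of cristae, 4 of 416 of cardiolipin and 1 of 361 of transport were called, 0.277% to 1.63%. Of all covered events 1.22% were. With CPSF3 knockdown 5 of 427 fission events (1.17%) and 1 of 547 fusion events (0.183%) were called, against 0.587% of all. With UL1 knockdown 5 of 425 (1.18%) and 1 of 553 (0.181%) were called, against 0.497%. In the other 3 groups none was called for either, of 416, 416 and 361 covered for CPSF3. In Empty against NI 5 of 436 fission (1.15%), 1 of 416 cristae (0.24%) and 2 of 420 cardiolipin events (0.476%) were called, and 0 of 546 fusion and 0 of 352 transport events, against 0.679%. In T7-TIA1 against Empty 2 of 436 fission (0.459%), 4 of 546 fusion (0.733%) and 2 of 420 cardiolipin events (0.476%) were called, and none of the others, against 0.33%. A 139-nt exon of *Dnm2*, a dynamin of endocytosis (MmuEX0015305, chr9:21480407-21480545), had a PSI of 17.6 ± 0.77 in NI, 49.2 ± 9.91 in shSCR, 19.8 ± 1.54 and 35.5 ± 13.5 in shCPSF3 and 31.6 ± 7.86 and 29.2 ± 5.63 in shUL1 cells. In the OE data it had 17.2 ± 1.93 in NI, 43.2 ± 1.14 in Empty and 39.8 ± 0.01 in T7-TIA1 cells. A 165-nt exon of *Pla2g6* (MmuEX0035523, chr15:79304305-79304469) had 23.9 ± 6.13 in NI and 61.9 ± 7.50 in shSCR cells, and stayed at 56.9 to 72.5 with knockdown. It had 40.6 ± 2.14 in NI, 85.4 ± 0.52 in Empty and 54.5 ± 7.40 in T7-TIA1 cells. The largest knockdown differences among the partners were in an intron of *Inf2* (MmuINT0082080). It was retained at 27.0 ± 0.785% in NI, 55.0 ± 12.6% in shSCR and 26.6 to 36.9% in the knockdown groups. In the OE data it had 30.0 ± 2.56% in NI, 32.3 ± 6.58% in Empty and 26.6 ± 2.91% in T7-TIA1 cells.

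Of the other groups, the largest day 12 differences were 13.8 points for a 3′ splice site of *Miga2* (1.69 in NI and 15.4 in shSCR cells), 15.7 points for an intron of *Mtx3* (37.1 and 52.7) and 12.4 points for a 123-nt exon of *Rhot1* (25.2 and 37.6). The largest differences from shSCR were 16.0 points for a 129-nt exon of *Oma1* with CPSF3 knockdown and 10.3 points for an intron of *Miga1* with UL1 knockdown. In Empty against NI, an 89-nt exon of *Mtx3* differed by 11.7 points. In T7-TIA1 against Empty, an intron of *Mief2* differed by 11.5 points (42.6 ± 3.44 in Empty and 54.2 ± 3.45 in T7-TIA1 cells). Its SD in NI cells of the OE data was 11.2. A 5′ splice site of *Mul1* differed by −17.6 points (28.8 ± 8.78 and 11.2 ± 1.77), with an SD of 22.4 in shCPSF3#2 cells.

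The course of the 33-nt *Dnm1l* exon over the 9 group means was compared with that of exons of other genes covered in all libraries whose group means ranged over at least 20 points, 1108 in number. Pearson's r, given as a description over means that share libraries, was highest for exons of *Golga2* (81 nt, 0.977), *Meg3* (113 nt, 0.974), *Tex9* (75 nt, 0.968), *Chd2* (44 nt, 0.966) and *Ptk2* (9 nt, 0.966). It was lowest for *Ralgapa1* (82 nt, −0.979), *Ncoa6* (2976 nt, −0.974), *Clstn1* (57 nt, −0.973), *Wasf3* (170 nt, −0.971) and *Zfp326* (161 nt, −0.971). *Ralgapa1* inclusion, for instance, was 66.4 in NI, 24.2 in shSCR and 53.7 to 70.0 in the knockdown groups. Among exons of the 8 genes r was 0.988 for the 90-nt *Immt* exon, 0.970 for the 78-nt *Dnm1l* exon, 0.969 for the 15-nt *Immt* exon, 0.896 for *Taz* and 0.802 for *Opa1*, and it was 0.02 for the 60-nt *Mff* exon and −0.37 for the *Fis1* exon.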

How the data were processed

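RNA-seq was performed on poly(A) RNA with stranded paired-end libraries. The authors aligned reads to mm10 with STAR (v2.7.1a) and deposited, for each dataset, scaled expression signal, CPM values from *edgeR* (v3.16.5) whose library totals differ from 1e6, for genes with at least 5 CPM in 33% of samples and a coefficient of variation of at least 0.2. The deposited splicing table holds *vast-tools* PSI in percent, with coverage scores and inclusion and exclusion reads. A constant gene can therefore be missing from expression, but the 8 genes were all listed.

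Expression was fitted in R (v4.3.3) with *limma* (v3.58.1, trend) on log2(scaled CPM + 1), fitting each dataset as a whole, with 2-sided tests and Benjamini-Hochberg adjustment over all genes. A knockdown effect is the mean of both shRNAs minus shSCR. Events needed a coverage score of VLOW or better in each library compared. For OE libraries, log2((inclusion reads + 1)/(exclusion reads + 1)) was fitted in *limma* (trend, robust), weighted by counting variance plus 0.0497, for events with a mean PSI of 1 to 99. Reads without molecular identifiers are not independent molecules, and counting intervals cover counting error only. In simulated data for shSCR against NI over 9435 genes, 56 of 100 genes changed by 1 and 83 of 100 changed by 2 on the log2 scale were recovered, and 59 and 92 of 100 for Empty against NI over 9472 genes. The read test recovered 6 of 100 events changed by 1 and 50 of 100 changed by 2 in log2 odds for Empty against NI, over 20000 events, so smaller changes can be missed.

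The 8 genes, the lists of partner genes and the tests were chosen with earlier results of these data known. For each of the 8 genes at most 3 called events with the largest differences are named, or the most variable covered event where none was called, and of each list the 2 largest changes past the threshold and the event with the largest difference. Alternatives were other pseudocounts, scalings, filters, coverage, thresholds and groups in the fit, a replicate block, and leaving out each library. Positions and sequences are from GENCODE vM21 transcripts of GRCm38.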

Additional observations from a re-analysis of the deposited data

How the results depend on the processing

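For expression, fitting only the groups compared left 1 of the 8 genes past the threshold for CPSF3, 0 for UL1 and 1 for Empty against NI, and over all genes 344 in place of 2458 for CPSF3, 145 in place of 987 for UL1 and 2 in place of 0 for T7-TIA1. Leaving out 1 library, the count ranged from 0 to 3 for UL1 and from 1 to 3 for Empty against NI. Over all genes it ranged from 2613 to 4305 for shSCR against NI (4197 with all libraries, lowest without NI replicate 1), from 591 to 3225 for CPSF3 and from 158 to 1031 for UL1 (both lowest without shSCR replicate 2), and from 1473 to 5978 for Empty against NI (4401 with all libraries, lowest without Empty replicate 1). The read test of Empty against NI gave 0 of 97 events on unweighted PSI in percent (28 in place of 1628 over all events), and 3 to 13 when 1 library was left out (3 without NI replicate 1 or 2, 4 without Empty replicate 1 and 13 without Empty replicate 2). Over all events it gave 1066 with only the groups compared and 324 to 4162 with 1 library left out. For T7-TIA1 the read test gave 0 over all events on unweighted PSI and 106 with 0.5 reads added, in place of 56.

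For the 10-point rule, a minimum difference of 15 left 10 (shSCR against NI), 8 (CPSF3), 6 (UL1) and 0 (T7-TIA1) events of the 8 genes and 2438, 904, 701, 1314 (Empty against NI) and 450 over all genes. A minimum of 10 between nearest libraries left 11 (shSCR against NI) and 5 (Empty against NI), and 2649, 1246 and 701 (T7-TIA1) over all genes. With 1 library left out the counts ranged from 6 to 15 for Empty against NI and from 0 to 5 for T7-TIA1. Over all events they then ranged from 3591 to 5429 for Empty against NI (2609 with all libraries, highest without Empty replicate 2), from 1481 to 3027 for T7-TIA1 (1256, highest without T7-TIA1 replicate 2), and from 2215 to 3449 for CPSF3 (2203) and 1891 to 3136 for UL1 (1883), both highest without shSCR replicate 2.

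With the replicate number as a block, 5 of the 8 genes passed for CPSF3 and 5 for UL1 (4698 and 2768 over all genes), since *Dnm1l* (*limma* adjusted p = 0.00792 and 0.0136) and *Mfn1* (0.0278 and 0.0497) were added, and *Dnm1l* passed in shSCR against NI (0.00810). *Taz* did not pass in Empty against NI (*limma* adjusted p = 0.0524). The read test then called 3577 and 137 events over all for Empty against NI and T7-TIA1, with the *Dnm1l* intron added (*limma* adjusted p = 0.0170). The labels do not say that the 2 numbers mark a shared culture or day. In expression, deviations of same-numbered libraries correlated at r = 0.674 to 0.949 among the day 12 groups of the KD data (0.103 to 0.254 in PSI), at −0.127 to 0.0218 between NI and those groups (−0.0256 to 0.0204 in PSI), and at 0.171 to 0.308 in the OE data (0.0238 to 0.113 in PSI). So the numbers went together among the day 12 KD groups in both measures and in the OE data in expression, and not between NI and day 12 KD cells.

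Signs reversed only for values that passed no threshold. With libraries scaled to one median, the log2 change of *Mff* was −0.0201 in shSCR against NI and −0.00676 for UL1. With 1 library left out, log2 changes ranged from −0.271 to 0.0305 for *Immt* and −0.108 to 0.0677 for *Opa1* (CPSF3), −0.0474 to 0.0546 for *Mff*, −0.268 to 0.0338 for *Immt* and −0.174 to 0.0015 for *Opa1* (UL1), −0.0209 to 0.0824 for *Mfn1* and −0.134 to 0.0984 for *Immt* (Empty against NI), and −0.305 to 0.0125 for *Dnm1l* (T7-TIA1). Log2 odds then ranged from −0.116 to 0.104 for the *Mff* exon and −0.0617 to 0.21 for *Taz* intron MmuINT0157188 (Empty against NI). For T7-TIA1 they ranged from −0.378 to 0.0467 for the *Opa1* exon, −0.82 to 0.0664 for the 90-nt *Immt* exon, −1.34 to 0.227 for the *Dnm1l* intron, −0.0783 to 0.82 for the *Mfn2* intron and −0.268 to 0.112 for *Taz* intron MmuINT0157189. The cause of these moves was not tested. The planned count tests in edgeR and DESeq2 were not run. Although the expression values of each library were whole multiples of 1 step, the lowest of them lay many steps above 0, and the criterion set for recovering reads, which rests on values of a few reads, was not met.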
